A study of Mus musculus with 12 samples.

Results

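Cytotoxic lymphocytes kill target cells with granule proteins and a death ligand, and they read their targets through killer receptors. The transcripts of this machinery were followed in mouse terminal ileum. The genes were chosen by symbol: every symbol that starts with Klr followed by a, b, c, d, e, g, i or k (36 genes), and 17 named genes, namely Gzma, Gzmb, Gzmk, Gzmm, Prf1, Nkg7, Cd160, Fasl, Cd244, Cd7, Itgae, Itgb7, Cd96, Crtam, Ctsw, Tbx21 and Eomes. These are 53 of the 23284 genes in the count table. All 53 had at least 1 read, 39 were among the 15866 genes that passed the filter on low counts, and the other 14 are given by their reads. Klraq1 came in through its letters alone: it lies on chromosome 17 and is not a killer receptor gene.

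RNA of 12 ilea was sequenced, 3 mice in each of 4 groups kept under specific pathogen-free conditions. They comprised C57BL/6 animals as wild type, a Rag1-/- group, and Tcra-/- animals either housed separately or co-housed with wild type animals. Co-housing, per the labels, put equal numbers of age-matched male wild type mice and knockout mice in a cage for 4 to 8 weeks. Mice came from Taconic, and the labels list no transgene and no agent. Rag1 is needed to assemble antigen receptors, so Rag1-/- mice lack mature T and B cells; Tcra encodes the alpha chain of the alpha-beta T cell receptor, so Tcra-/- mice lack alpha-beta T cells and keep gamma-delta T cells and B cells. Ages, the number of cages and any sequencing batch were not given. The co-housed, wild type and Rag1-/- mice carry numbers of 1 series and the separate Tcra-/- mice carry T2 to T4, so housing and any difference in origin cannot be told apart. P-values measure the spread between these mice.

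Killer lymphocytes of the gut comprise the intraepithelial T cells, natural killer cells and group 1 innate lymphoid cells. Perforin opens the target cell membrane and granzymes, which are serine proteases, enter and start cell death, while Fas ligand triggers death from the surface. Killer lectin-like receptors weigh signals: some, with an inhibitory tail, hold the cell back when they meet class I molecules of the host, and others pair with signalling adaptors and release killing. In mice the Ly49 receptors (Klra genes) form a cluster of closely related genes on chromosome 6 that differs between strains and is switched on gene by gene in single cells.

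Levels are given as CPM, counts scaled to the normalized library size, and per kilobase where genes are compared with each other. Values by mouse always stand in 1 order within a group: WTB6x3159, WTB6x3160 and WTB6x3167 for wild type, TCRaSepxT2, TCRaSepxT3 and TCRaSepxT4 for separate Tcra-/-, TCRaCox3155, TCRaCox3156 and TCRaCox3157 for co-housed Tcra-/-, and RAG1x3163, RAG1x3164 and RAG1x3168 for Rag1-/-. In parentheses, a log2 change is a log2 fold change. A gene is called higher or lower at an edgeR quasi-likelihood adjusted p (Benjamini-Hochberg over all tested genes) under 0.01.

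Libraries held 37061276 to 50581616 counts, of which 3447 to 17263 fell on the 53 genes. Rag1 had 69 to 92 reads in the mice labelled Rag1-/- and 0 in the other 9. The deleted stretch is not given, so the transcript does not check that label; the summed B cell markers, 6.55 to 8.69 CPM in the mice labelled Rag1-/- and 191 to 233 CPM in wild type, follow it. The 8 epithelial markers summed to 16541.6 to 18918.5 CPM over the 12 libraries. The 18 T cell markers summed to 119 to 174 CPM in wild type, 49.4 to 104 CPM in co-housed Tcra-/-, 22.0 to 23.5 CPM in separate Tcra-/- and 16.8 to 19.5 CPM in Rag1-/- mice; none of the 18 was at 0 in any group, and Cd3e and Cd5 were near 0 in Rag1-/- mice (means 0.0158 and 0.00816 CPM). The 8 pan-leukocyte markers summed to 438 to 488 CPM in wild type, 279 to 442 CPM in co-housed, 138 to 171 CPM in separate Tcra-/- and 121 to 139 CPM in Rag1-/- mice. These sums move with much of what follows, and their part in it was not tested. In whole tissue, fewer cells of a type and less RNA per cell cannot be told apart.

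Of the 8 killing transcripts, Gzma, Gzmb, Prf1, Nkg7, Fasl and Ctsw were most abundant in wild type ileum, least abundant in separately housed Tcra-/- ileum, and in between in the co-housed Tcra-/- and the Rag1-/- mice. Gzmk had its lowest mean in Rag1-/- mice, but on 2 reads there against 5 in separate Tcra-/- mice, with overlapping ranges. Gzmm had its highest mean in co-housed and its lowest in Rag1-/- mice with all groups overlapping. Other genes had their highest means in co-housed Tcra-/- mice (Klrk1, Klrb1a, Klrc1, Klri1, Klri2, Klra2, Klra4, Klra18, Klra33, Eomes and Gzmm) or in Rag1-/- mice (Klrb1b, Klrb1c, Klrg1 and Klra8), not all of them beyond the spread between mice. Of the 39 genes tested, 23 had their highest group mean in wild type, 11 in co-housed Tcra-/-, 4 in Rag1-/- and 1 in separate Tcra-/- mice. The lowest mean was in separate Tcra-/- mice for 30 of them, in Rag1-/- for 6, in wild type for 2 and in co-housed for 1.

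The first comparison of the study's design sets Rag1-/- against wild type ileum. Of the 39 genes, 17 were lower, 3 higher and 19 not called, beside 11.5% called lower and 9.42% called higher among all genes tested. Their median log2 fold change was -1.05, against -0.02 over all genes. The second sets co-housed against separate Tcra-/- ileum. Here 27 were higher, 1 (Klraq1) lower and 11 not called, beside 21.1% higher and 17.7% lower among all genes, with a median of 1.99 against -0.01. Medians were the same with genes at 0 reads in a group set at their bounds. Without TCRaCox3156, the co-housed mouse with the highest level in most of these genes, 18 were higher and 1 lower. Tbx21, Eomes, Cd160, Klrb1b, Crtam, Cd7, Fasl, Gzmk and Klra7 were the 9 calls lost. Over all genes, 5102 of 16057 were then called, beside 38.8% of 15866 with all mice.

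**Figure D1:**
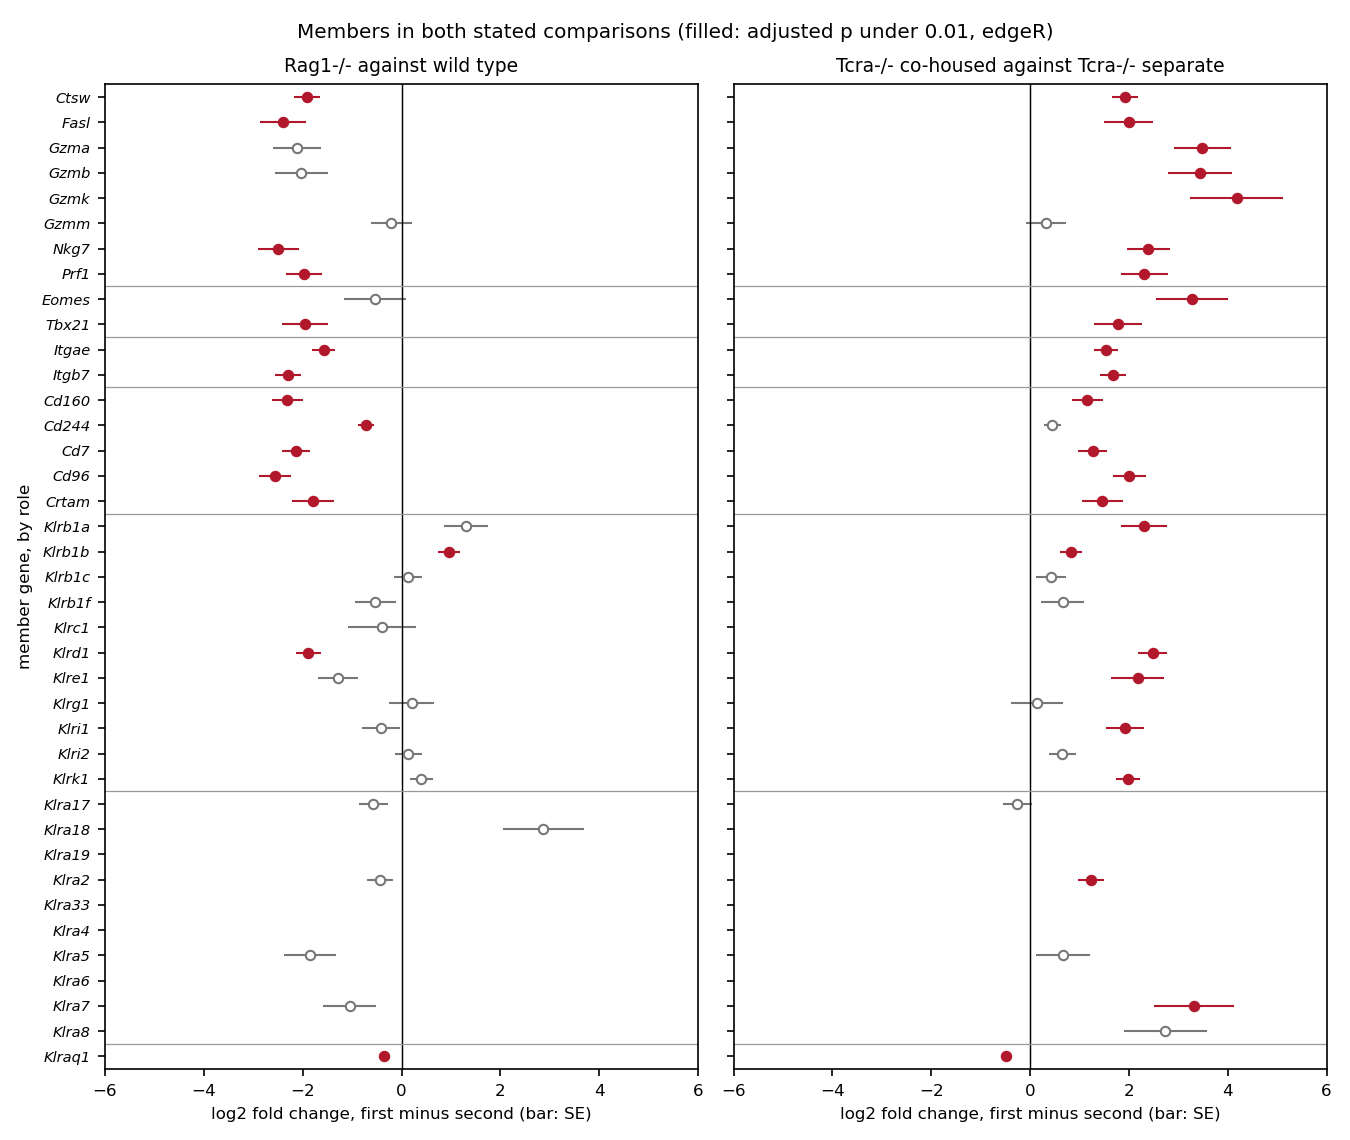
Log2 fold change with its standard error for each gene tested (rows, grouped by role), Rag1-/- against wild type on the left and co-housed against separate Tcra-/- on the right; filled points have an adjusted p under 0.01 and genes with 3 or fewer reads in a group have no point. Most filled points lie below 0 on the left and above 0 on the right, with Klrb1b above 0 in both and Klraq1 below 0 in both.

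Gzma encodes granzyme A, the most abundant of the set per length in wild type ileum (134 CPM per kilobase, ahead of Gzmb at 30.8). It lies at chr13:113884035-113891189 (mm9, minus strand). Its levels were 80.3, 139 and 133 CPM in wild type, 3.38, 2.86 and 2.06 CPM in separate Tcra-/-, 23.2, 55.9 and 13.7 CPM in co-housed Tcra-/- and 23.3, 23.7 and 34 CPM in Rag1-/- mice. Every wild type mouse lay above every other mouse and every separate Tcra-/- mouse lay below, while the co-housed range took in all 3 Rag1-/- values. In the co-housed comparison Gzma was 11.2-fold higher (log2 change 3.49, SE 0.57, adjusted p = 0.000928 in edgeR, 1.58e-11 to 0.0144 over the alternatives). Without TCRaCox3156 that log2 fold change was 2.75. In the Rag1-/- comparison it was 4.35-fold lower but just missed the threshold (log2 fold change -2.12, SE 0.49, adjusted p = 0.0104 in edgeR, 0.000104 to 0.0443 over the alternatives).

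Gzmb encodes granzyme B, which cleaves caspases (chr14:56877695-56881097, mm9, minus strand). It measured 32.1, 45.4 and 53.3 CPM in wild type, 1.14, 1.65 and 0.722 CPM in separate Tcra-/-, 10.3, 23.3 and 4.26 CPM in co-housed Tcra-/- and 10.1, 8.84 and 13.1 CPM in Rag1-/- mice. The order of the groups was that of Gzma, and again only the co-housed and Rag1-/- mice overlapped. Co-housing went with a 10.8-fold higher level (log2 fold change 3.44, SE 0.65, adjusted p = 0.00219 in edgeR, 1.16e-08 to 0.0214 over the alternatives). That log2 fold change was 2.64 without TCRaCox3156, and the adjusted p was 0.0103 without TCRaSepxT2 and 0.0124 without TCRaSepxT4. In Rag1-/- mice the level was 4.08-fold lower and not called (log2 change -2.03, SE 0.53, adjusted p = 0.0186 in edgeR, 0.0005 to 0.0696 over the alternatives).

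Prf1 encodes perforin (chr10:60760584-60767011, mm9, plus strand). Its levels were low: 1.01, 2.22 and 1.83 CPM in wild type, 0.0878, 0.163 and 0.109 CPM in separate Tcra-/-, 0.428, 0.823 and 0.545 CPM in co-housed Tcra-/- and 0.392, 0.308 and 0.576 CPM in Rag1-/- mice. All wild type mice lay above and all separate Tcra-/- mice below the rest. Prf1 was 3.92-fold lower in Rag1-/- than in wild type mice (log2 fold change -1.97, SE 0.37, adjusted p = 0.000634) and 4.97-fold higher in co-housed than in separate Tcra-/- mice (log2 fold change 2.31, SE 0.47, adjusted p = 0.000686).

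Nkg7, a membrane protein of cytotoxic granules, had 7.11, 13.5 and 10.9 CPM in wild type, 0.921, 1.77 and 0.853 CPM in separate Tcra-/-, 5.43, 9.55 and 3.49 CPM in co-housed Tcra-/- and 1.98, 1.21 and 2.39 CPM in Rag1-/- mice. Unlike the 2 granzymes above, it lay lower in every Rag1-/- mouse than in any co-housed mouse, a difference that was not called. It was 5.62-fold lower in Rag1-/- than in wild type mice (log2 fold change -2.49, SE 0.42, adjusted p = 0.000837) and called higher in co-housed than in separate Tcra-/- mice.

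The RefSeq stretches just before the starts of these 4 genes are shown as examples. Fasl and Ctsw had the same order of group means and are not shown. The T-box core was searched because Tbx21 and Eomes, T-box factors measured here, are known regulators of killing genes. Any part of either core in the order of the groups was not tested. Each is the 150 bases before the start on the gene's own strand in GRCm38, a build other than that of the counts. Capitals mark AGGTGT, the core bound by T-box factors, or TGTGGT, the core bound by Runx factors, or the reverse complement of either. They stand at chr13:113100982-113101131 for Gzma, chr14:56262335-56262484 for Gzmb, chr10:61297686-61297835 for Prf1 and chr7:43436988-43437137 for Nkg7.
Gzma: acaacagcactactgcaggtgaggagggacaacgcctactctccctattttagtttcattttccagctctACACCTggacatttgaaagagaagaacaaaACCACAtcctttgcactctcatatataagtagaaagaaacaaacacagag
Gzmb: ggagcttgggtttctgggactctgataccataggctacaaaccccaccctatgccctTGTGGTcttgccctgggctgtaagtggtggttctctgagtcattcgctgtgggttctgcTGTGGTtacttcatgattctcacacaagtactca
Prf1: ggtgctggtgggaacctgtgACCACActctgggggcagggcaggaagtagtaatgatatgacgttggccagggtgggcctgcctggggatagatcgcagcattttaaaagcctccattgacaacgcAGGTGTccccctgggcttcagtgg
Nkg7: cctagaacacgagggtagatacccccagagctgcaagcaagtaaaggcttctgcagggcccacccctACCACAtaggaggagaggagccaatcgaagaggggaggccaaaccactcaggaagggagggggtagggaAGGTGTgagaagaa

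In the 250 bases before the start, on both strands, AGGTGT occurred in 4 of the 34 members with a RefSeq entry (Gzma, Gzmk, Nkg7 and Prf1) and in 11.8% of all 32851 windows. TGTGGT occurred in 15 of the 34 and in 14% of all windows. Gzma, Nkg7 and Prf1 held both, as did 2.13% of all windows. Fasl and Ctsw were not among the members found with either motif. The 2 motifs can overlap where they share TGT. These are letter matches, and no binding was measured.

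**Figure D2:**
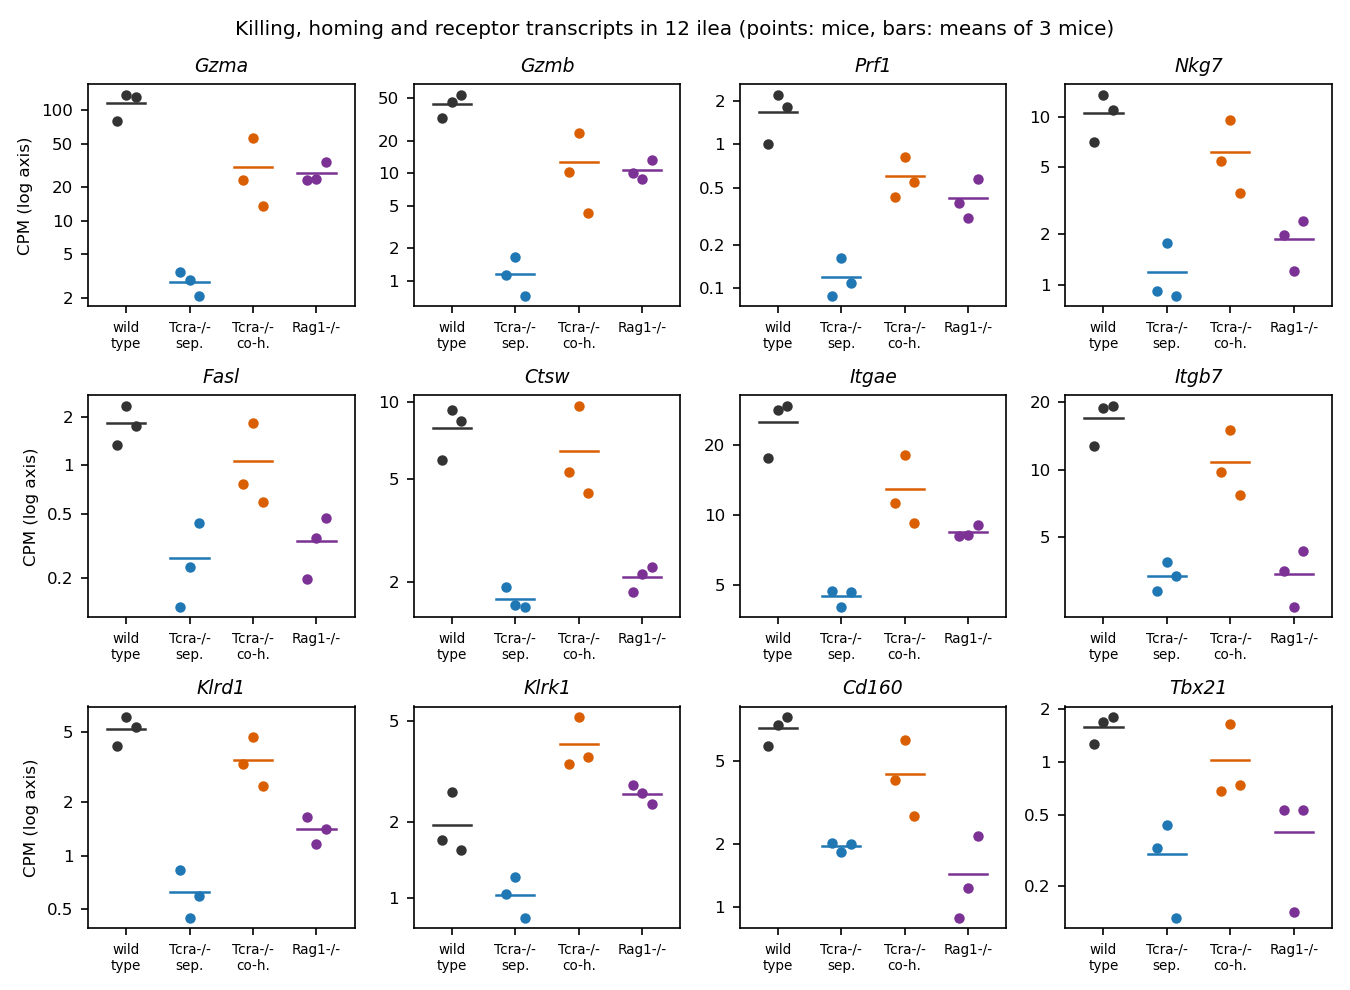
CPM on a log axis in each of 12 mice (points; bars are means of 3 mice) for 12 genes of killing, homing and recognition, with the 4 groups along the horizontal axis. Gzma, Gzmb, Prf1 and Itgae have every wild type mouse highest or nearly so and every separate Tcra-/- mouse lowest, whereas Klrk1 is highest in the 3 co-housed mice.

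Among the other killing genes, Fasl (Fas ligand) measured 1.35, 2.36 and 1.77 CPM in wild type, 0.132, 0.233 and 0.437 CPM in separate Tcra-/-, 0.771, 1.83 and 0.594 CPM in co-housed Tcra-/- and 0.196, 0.355 and 0.469 CPM in Rag1-/- mice. Rag1-/- and separate Tcra-/- mice overlapped, both below the co-housed mice. It was called lower in the Rag1-/- comparison and higher in the co-housed comparison; the latter call was lost without TCRaCox3156, TCRaSepxT2 or TCRaSepxT3 (adjusted p = 0.0316, 0.0193 and 0.0157). Ctsw, the protease cathepsin W of cytotoxic cells, had 5.94, 9.27 and 8.41 CPM in wild type, 1.91, 1.63 and 1.6 CPM in separate Tcra-/-, 5.31, 9.65 and 4.41 CPM in co-housed Tcra-/- and 1.84, 2.16 and 2.28 CPM in Rag1-/- mice. Co-housed and wild type mice overlapped, and both lay above the other 6. Ctsw was 3.75-fold lower in Rag1-/- than in wild type mice (log2 fold change -1.91, SE 0.26, adjusted p = 4.86e-05) and 3.78-fold higher in co-housed than in separate Tcra-/- mice (log2 fold change 1.92, SE 0.27, adjusted p = 2.7e-05).

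Gzmk and Gzmm, 2 further granzymes, differed from the genes above in the order of their group means. For Gzmk only the Rag1-/- and separate Tcra-/- means, both near 0 and with overlapping ranges, changed places. Gzmk had 0.9, 0.952 and 1.14 CPM in wild type, 0.0439, 0.0466 and 0.0219 CPM in separate Tcra-/-, 0.742, 1.37 and 0.0495 CPM in co-housed Tcra-/- and 0, 0.0474 and 0 CPM in Rag1-/- mice. The co-housed group was split, with TCRaCox3157 at the level of the separate mice. Rag1-/- mice held 2 reads in all against 133 in wild type, a count ratio of 64.8 in favour of wild type (95% counting interval 17.6 to 541, adjusted p = 0.000777); both reads came from RAG1x3164. The higher call in co-housed mice was lost without TCRaCox3156 or TCRaSepxT4 (adjusted p = 0.0106 and 0.0129). Gzmm ran from 0.277 to 0.777 CPM over all 12 mice, with every group overlapping every other, and was not called in any of the 6 comparisons.

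Tbx21 and Eomes encode T-bet and Eomesodermin, which direct killer cell development. Tbx21 measured 1.26, 1.68 and 1.81 CPM in wild type, 0.329, 0.443 and 0.131 CPM in separate Tcra-/-, 0.685, 1.65 and 0.743 CPM in co-housed Tcra-/- and 0.539, 0.142 and 0.533 CPM in Rag1-/- mice. The Rag1-/- and separate Tcra-/- mice overlapped below the others. Tbx21 was 3.87-fold lower in Rag1-/- than in wild type mice (log2 fold change -1.95, SE 0.46, adjusted p = 0.00413), a call lost without RAG1x3164, WTB6x3160 or WTB6x3167 (adjusted p = 0.0184, 0.0146 and 0.0152). Co-housed mice had 3.43-fold more than separate mice (log2 fold change 1.78, SE 0.49, adjusted p = 0.00677), a call lost without TCRaCox3156, TCRaSepxT2 or TCRaSepxT4 (adjusted p = 0.0538, 0.0199 and 0.0359).

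Eomes was rarer, with 0.247, 0.385 and 0.112 CPM in wild type, 0.0658, 0.0699 and 0 CPM in separate Tcra-/-, 0.228, 0.754 and 0.371 CPM in co-housed Tcra-/- and 0.196, 0.19 and 0.128 CPM in Rag1-/- mice. The wild type range met those of the co-housed and the Rag1-/- mice, and the separate Tcra-/- mice lay under all of them. Eomes was 9.69-fold higher in co-housed than in separate mice (log2 fold change 3.28, SE 0.72, adjusted p = 0.00125), and without TCRaCox3156 the log2 fold change was 2.69 with an adjusted p of 0.0106. In Rag1-/- against wild type it was not called (log2 change -0.54, SE 0.62, adjusted p = 0.561).

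Itgae and Itgb7 encode the 2 chains of the integrin that binds E-cadherin and anchors lymphocytes between gut epithelial cells; Itgb7 also pairs with an alpha-4 chain that binds Madcam1 on gut vessels. Itgae (chr11:72904097-72960951, mm9, plus strand) measured 17.7, 28.3 and 29.7 CPM in wild type, 4.69, 4.01 and 4.68 CPM in separate Tcra-/-, 11.3, 18.2 and 9.28 CPM in co-housed Tcra-/- and 8.16, 8.22 and 9.05 CPM in Rag1-/- mice. The Rag1-/- mice lay between the co-housed and the separate mice without overlap, and TCRaCox3156 reached above WTB6x3159. Itgae was 2.98-fold lower in Rag1-/- than in wild type mice (log2 fold change -1.57, SE 0.24, adjusted p = 0.000249) and 2.90-fold higher in co-housed than in separate Tcra-/- mice (log2 fold change 1.54, SE 0.25, adjusted p = 0.000203).

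Itgb7 had 12.7, 18.8 and 19.3 CPM in wild type, 2.9, 3.87 and 3.37 CPM in separate Tcra-/-, 9.74, 15 and 7.67 CPM in co-housed Tcra-/- and 3.55, 2.44 and 4.33 CPM in Rag1-/- mice. Here the Rag1-/- mice overlapped the separate Tcra-/- mice. Itgb7 was 4.90-fold lower in Rag1-/- than in wild type mice (log2 fold change -2.29, SE 0.27, adjusted p = 2.62e-05) and 3.21-fold higher in co-housed than in separate Tcra-/- mice (log2 fold change 1.68, SE 0.27, adjusted p = 0.000165).

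The other 5 surface receptors were all called lower in Rag1-/- than in wild type mice, beside 11.5% of all genes. In co-housed against separate Tcra-/- mice 4 of them were called higher, beside 21.1% of all genes. Cd96, a receptor for the poliovirus receptor family of adhesion molecules, had 6.99, 9.54 and 10.5 CPM in wild type, 1.16, 1.19 and 1.33 CPM in separate Tcra-/-, 4.57, 7.43 and 2.8 CPM in co-housed Tcra-/- and 1.3, 1.09 and 2.16 CPM in Rag1-/- mice. It was 5.90-fold lower in Rag1-/- mice (log2 fold change -2.56, SE 0.33, adjusted p = 4.28e-05) and 4.02-fold higher in co-housed mice (log2 fold change 2.01, SE 0.34, adjusted p = 0.000208). Cd160, which binds the herpesvirus entry mediator encoded by Tnfrsf14, measured 5.94, 7.45 and 8.18 CPM in wild type, 2.02, 1.84 and 2.01 CPM in separate Tcra-/-, 4.06, 6.29 and 2.72 CPM in co-housed Tcra-/- and 0.882, 1.23 and 2.2 CPM in Rag1-/- mice. Its lowest 2 values were both in Rag1-/- mice, where it was 4.95-fold lower than in wild type (log2 fold change -2.31, SE 0.32, adjusted p = 6.67e-05). Its higher call in co-housed mice was lost without any 1 of TCRaCox3155, TCRaCox3156, TCRaSepxT2, TCRaSepxT3 and TCRaSepxT4, with adjusted p of 0.0135 to 0.0369.

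Cd7, a surface molecule of T and natural killer cells, measured 13.7, 25.7 and 26.5 CPM in wild type, 3.97, 4.38 and 3.02 CPM in separate Tcra-/-, 9.02, 12.1 and 6.11 CPM in co-housed Tcra-/- and 4.46, 4.48 and 6.04 CPM in Rag1-/- mice. No 2 groups overlapped, and the order was wild type, co-housed, Rag1-/- and separate. Cd7 was 4.39-fold lower in Rag1-/- than in wild type mice (log2 fold change -2.13, SE 0.29, adjusted p = 0.000156); its higher call in co-housed mice was lost without TCRaCox3155, TCRaCox3156, TCRaSepxT2 or TCRaSepxT4 (adjusted p = 0.0116, 0.0147, 0.0129 and 0.0215). Crtam, a receptor that binds Cadm1, ran from 0.748 to 1.27 CPM in wild type, 0.21 to 0.461 CPM in separate Tcra-/-, 0.571 to 1.37 CPM in co-housed Tcra-/- and 0.22 to 0.341 CPM in Rag1-/- mice. It was called in both comparisons; the Rag1-/- call was lost without RAG1x3163, RAG1x3164 or WTB6x3167 (adjusted p = 0.0189, 0.0178 and 0.0219) and the co-housed call without TCRaCox3156, TCRaSepxT3 or TCRaSepxT4 (adjusted p = 0.0676, 0.0359 and 0.0276). Cd244, a receptor for Cd48 that myeloid cells also carry, moved least: 8.43 to 11.5 CPM in wild type, 3.72 to 5.68 CPM in separate Tcra-/-, 6.14 to 7.33 CPM in co-housed Tcra-/- and 5.56 to 6.75 CPM in Rag1-/- mice. Its lower call in Rag1-/- mice was lost without RAG1x3163, RAG1x3168, WTB6x3160 or WTB6x3167 (adjusted p = 0.0223, 0.0109, 0.0171 and 0.0193), and it was not called in the co-housed comparison.

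Among the killer lectin-like receptors outside the Ly49 group (11 tested), 1 was lower and 1 higher in Rag1-/- than in wild type mice, near the 11.5% and 9.42% of all genes, and 7 were higher in co-housed than in separate Tcra-/- mice, beside 21.1% of all genes. Klrd1 encodes CD94, the common partner of the NKG2 receptors that read the class I molecule Qa-1 (chr6:129541829-129548793, mm9, plus strand). Its levels were 4.14, 6.1 and 5.34 CPM in wild type, 0.834, 0.443 and 0.591 CPM in separate Tcra-/-, 3.28, 4.69 and 2.48 CPM in co-housed Tcra-/- and 1.64, 1.16 and 1.41 CPM in Rag1-/- mice. Only co-housed and wild type mice overlapped. Klrd1 was 3.70-fold lower in Rag1-/- than in wild type mice (log2 fold change -1.89, SE 0.26, adjusted p = 3.66e-05). It had the smallest adjusted p of the set in the co-housed comparison, where it was 5.57-fold higher (log2 change 2.48, SE 0.29, adjusted p = 3.06e-06).

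Klrk1 encodes NKG2D, an activating receptor for stress-induced ligands (chr6:129560339-129573859, mm9, minus strand). Its order differed from that of Klrd1: 1.69, 2.61 and 1.54 CPM in wild type, 1.03, 1.21 and 0.831 CPM in separate Tcra-/-, 3.37, 5.19 and 3.59 CPM in co-housed Tcra-/- and 2.79, 2.58 and 2.35 CPM in Rag1-/- mice. All co-housed mice lay above every other mouse, and the Rag1-/- mice overlapped wild type. Klrk1 was 3.96-fold higher in co-housed than in separate Tcra-/- mice (log2 fold change 1.99, SE 0.25, adjusted p = 6.57e-06) and was not called in Rag1-/- against wild type (log2 fold change 0.40, SE 0.24, adjusted p = 0.218). Klrc1, which encodes the inhibitory Klrd1 partner NKG2A, was sparse, with 0.0453 to 0.179 CPM in wild type, 0 to 0.0439 CPM in separate Tcra-/-, 0.257 to 0.48 CPM in co-housed Tcra-/- and 0.049 to 0.107 CPM in Rag1-/- mice. Co-housed mice had 41 reads and separate mice 3, a count ratio of 15.4 (95% counting interval 4.91 to 77.7, adjusted p = 0.000497), and 2 of those 3 reads were in TCRaSepxT2.

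Klre1 encodes a receptor chain that pairs with the chain of Klri1 or with that of Klri2. Klre1 had 0.63, 1.47 and 0.715 CPM in wild type, 0.0878, 0.0466 and 0.153 CPM in separate Tcra-/-, 0.514, 0.366 and 0.47 CPM in co-housed Tcra-/- and 0.245, 0.403 and 0.491 CPM in Rag1-/- mice. Separate Tcra-/- mice lay below all others, and the call against co-housed mice was lost without TCRaCox3155, TCRaSepxT2 or TCRaSepxT3 (adjusted p = 0.0101, 0.0128 and 0.016). Klri1 was highest in co-housed mice (0.644 to 0.777 CPM), against 0.292 to 0.514 CPM in wild type, 0.14 to 0.241 CPM in separate Tcra-/- and 0.213 to 0.384 CPM in Rag1-/- mice, and was 3.79-fold higher in co-housed than in separate mice (log2 fold change 1.92, SE 0.39, adjusted p = 0.000579). Klri2 ranged from 0.606 to 1.13 CPM over the 12 mice and was not called in either comparison. Klrg1, an inhibitory receptor for cadherins, ranged from 0.132 to 0.626 CPM and was likewise not called.

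The Klrb1 genes encode the NKR-P1 receptors, which bind Clec2 molecules. Klrb1b, an inhibitory member that binds the product of Clec2d, was higher in Rag1-/- than in wild type mice: it measured 2.79, 2.13 and 3.04 CPM in wild type, 3.44, 2.82 and 2.27 CPM in separate Tcra-/-, 3.74, 6.74 and 4.65 CPM in co-housed Tcra-/- and 5.68, 4.88 and 4.89 CPM in Rag1-/- mice. Every co-housed and Rag1-/- mouse lay above the other 6. The call in Rag1-/- mice (adjusted p = 0.00321) was lost without RAG1x3163, WTB6x3159 or WTB6x3160 (0.0158, 0.0101 and 0.0204) and that in co-housed against separate mice (adjusted p = 0.00475) without TCRaCox3156, TCRaSepxT3 or TCRaSepxT4 (0.0384, 0.016 and 0.0293). Scaled by library size alone, neither of these calls was made (adjusted p = 0.013 and 0.0145). Klrb1a had 0.202, 0.204 and 0.537 CPM in wild type, 0.0878, 0.256 and 0.262 CPM in separate Tcra-/-, 1.43, 0.731 and 0.891 CPM in co-housed Tcra-/- and 0.882, 0.687 and 0.768 CPM in Rag1-/- mice, with the same split of the mice. It was 4.95-fold higher in co-housed than in separate mice (log2 fold change 2.31, SE 0.46, adjusted p = 0.000584) and not called in Rag1-/- against wild type. Klrb1c, which encodes the NK1.1 antigen used to stain natural killer cells, ran from 0.481 to 1.52 CPM and Klrb1f from 0.176 to 0.64 CPM, and neither was called in these 2 comparisons.

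The Ly49 genes had few reads, and several rows are not separate measurements. Klra6 and Klra19 shared nearly all exon bases and held identical counts, and Klra4, Klra18 and Klra33 also shared exons, as did Klra8 with Klra21, so reads could be split or repeated between them. Of the 10 Ly49 rows tested, 2 were higher and 2 lower in Rag1-/- than in wild type mice, beside 9.42% higher and 11.5% lower among all genes. The 2 lower rows were Klra6 and Klra19. In co-housed against separate Tcra-/- mice 5 rows were higher, Klra4, Klra18 and Klra33 among them, beside 21.1% higher and 17.7% lower among all genes. Counting Klra6 and Klra19, and Klra4, Klra18 and Klra33, as 1 gene each, 36 loci remained of the 39 genes. Beside the same shares, 16 loci were lower and 3 higher in Rag1-/- mice, and 25 were higher and 1 lower in co-housed mice.

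Klra6 encodes Ly49F, an inhibitory receptor (chr6:129963051-129976972, mm9, minus strand). Its level was 0.562, 0.453 and 0.671 CPM in wild type mice, from 75 reads. It had 0 reads in the 6 separate Tcra-/- and Rag1-/- mice, and 2 reads in co-housed mice, both in TCRaCox3157 (0.0495 CPM). Klra6 was at least 24.4-fold lower in Rag1-/- than in wild type mice, taking the limit of 3 counts over the group that a count of 0 allows (adjusted p = 0.000171).

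The reverse held for Klra8, which encodes Ly49H, an activating receptor known for recognising a cytomegalovirus protein (chr6:130065244-130079916, mm9, minus strand). It had 0 reads in the wild type mice, 0, 0.0466 and 0.0437 CPM in separate Tcra-/-, 0.114, 0.297 and 0.223 CPM in co-housed Tcra-/- and 0.294, 0.0948 and 0.341 CPM in Rag1-/- mice. Each co-housed and Rag1-/- mouse lay above the other 6. Klra8 was at least 10.9-fold higher in Rag1-/- than in wild type mice (adjusted p = 0.00165) and not called in co-housed against separate mice (adjusted p = 0.0143). Klra4, the activating receptor Ly49D (chr6:129994035-130017289, mm9, minus strand), had 0, 0.0453 and 0 CPM in wild type, 0, 0.0233 and 0 CPM in separate Tcra-/-, 0.228, 0.343 and 0.322 CPM in co-housed Tcra-/- and 0.0735, 0.19 and 0.32 CPM in Rag1-/- mice. The split of the mice was that of Klra8. Reads of Klra4 were 13.3 times as frequent in Rag1-/- as in wild type mice (95% counting interval 3.34 to 116, adjusted p = 0.00941), a call lost without RAG1x3164, RAG1x3168, WTB6x3159 or WTB6x3167 (adjusted p = 0.0218, 0.0545, 0.0419 and 0.0395), by the DESeq2 test (0.0149), with library size alone (0.011) and with every gene that had a read (0.0123). They were 40.6 times as frequent in co-housed as in separate mice (95% counting interval 6.83 to 1.65e+03, adjusted p = 0.000629), where 36 reads stood against 1.

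Klra18 followed Klra4, with 0 to 0.0906 CPM in wild type, 0 to 0.0233 CPM in separate Tcra-/-, 0.286 to 0.411 CPM in co-housed Tcra-/- and 0.147 to 0.32 CPM in Rag1-/- mice. Its reads were 47.3 times as frequent in co-housed as in separate mice (95% counting interval 8.04 to 1.91e+03, adjusted p = 0.000392). Without TCRaSepxT3, which held the only read of the separate mice, Klra18, Klra4 and Klra33 had 0 reads there. Klra33 ran from 0 to 0.0453 CPM in wild type, 0 to 0.0233 CPM in separate Tcra-/-, 0.228 to 0.32 CPM in co-housed Tcra-/- and 0.049 to 0.256 CPM in Rag1-/- mice and was called only in the co-housed comparison of these 2. Klra7, the inhibitory receptor Ly49G, had 0.427, 0.884 and 0.715 CPM in wild type, 0.0658, 0 and 0.0437 CPM in separate Tcra-/-, 0.314, 0.754 and 0.099 CPM in co-housed Tcra-/- and 0.392, 0.284 and 0.299 CPM in Rag1-/- mice. It shared the order of the killing genes and was called higher in co-housed mice, a call lost without TCRaCox3156, TCRaSepxT3 or TCRaSepxT4 (adjusted p = 0.0309, 0.0128 and 0.0117). Klra2, or Ly49B, which myeloid cells also carry, ran from 3.24 to 5.1 CPM in wild type, 1.28 to 2.65 CPM in separate Tcra-/-, 4.65 to 5.94 CPM in co-housed Tcra-/- and 2.16 to 3.58 CPM in Rag1-/- mice and was called higher in co-housed mice. The 14 myeloid markers summed to 165 to 202 CPM in separate and 380 to 542 CPM in co-housed Tcra-/- mice, and their part in the Klra2 result was not tested. Klra5 (0.064 to 0.537 CPM over the 12 mice) and Klra17 (0.628 to 1.48 CPM), the genes of Ly49E and Ly49Q, were not called in either comparison.

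**Figure D3:**
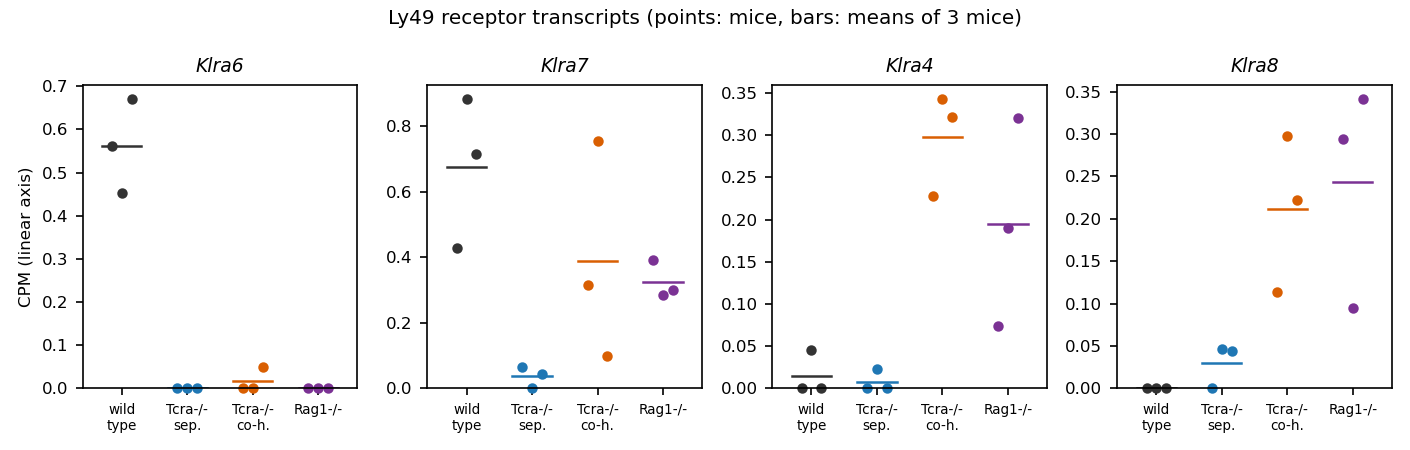
CPM on a linear axis in each of 12 mice (points; bars are means of 3 mice) for 4 Ly49 genes, with the 4 groups along the horizontal axis. Klra6 has reads in the wild type mice and in 1 co-housed mouse, Klra7 is lowest in separate Tcra-/- mice, and Klra4 and Klra8 are higher in every co-housed and Rag1-/- mouse than in the other 6.

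The 14 genes under the filter had at most 27 reads in any group. Of the Ly49 genes, Klra12, Klra13-ps, Klra21 and Klra23 had 5, 6, 0 and 8 reads in wild type, 0, 0, 3 and 0 in separate Tcra-/-, 26, 20, 18 and 22 in co-housed Tcra-/- and 17, 18, 20 and 18 in Rag1-/- mice. Klra1, Klra3, Klra9, Klra15 and Klra22 had 10, 22, 3, 9 and 12 reads in wild type, 0, 4, 2, 1 and 1 in separate Tcra-/-, 19, 18, 13, 27 and 22 in co-housed Tcra-/- and 3, 2, 3, 8 and 4 in Rag1-/- mice. Klra12, Klra13-ps and Klra23 shared exons, as did Klra1, Klra15 and Klra22. Klra12, Klra15 and Klra22 also shared exons with Klra4, Klra18 and Klra33, so reads could be split or repeated among these genes too. Klra10 and Klra14 had 4 and 2 reads in Rag1-/- mice and 0 and 1 in co-housed mice, and no others. Klrc2, which encodes NKG2C, had 11, 4, 13 and 3 reads in wild type, separate, co-housed and Rag1-/- mice, and Klrg2 had 23, 5, 8 and 5 in that order. Klrc3 had 1 read, in a Rag1-/- mouse. No test was made on these genes.

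Klraq1 had none of these courses. It measured 38.8, 40.5 and 40.2 CPM in wild type, 44.3, 39.7 and 42.1 CPM in separate Tcra-/-, 31.7, 29.9 and 28.4 CPM in co-housed Tcra-/- and 32.2, 31.4 and 30 CPM in Rag1-/- mice. Co-housed and Rag1-/- mice lay below the other 6 with little spread, and Klraq1 was lower in co-housed than in separate Tcra-/- mice (log2 fold change -0.49, SE 0.07, adjusted p = 3.31e-05) and also called lower in Rag1-/- than in wild type mice.

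**Figure D4:**
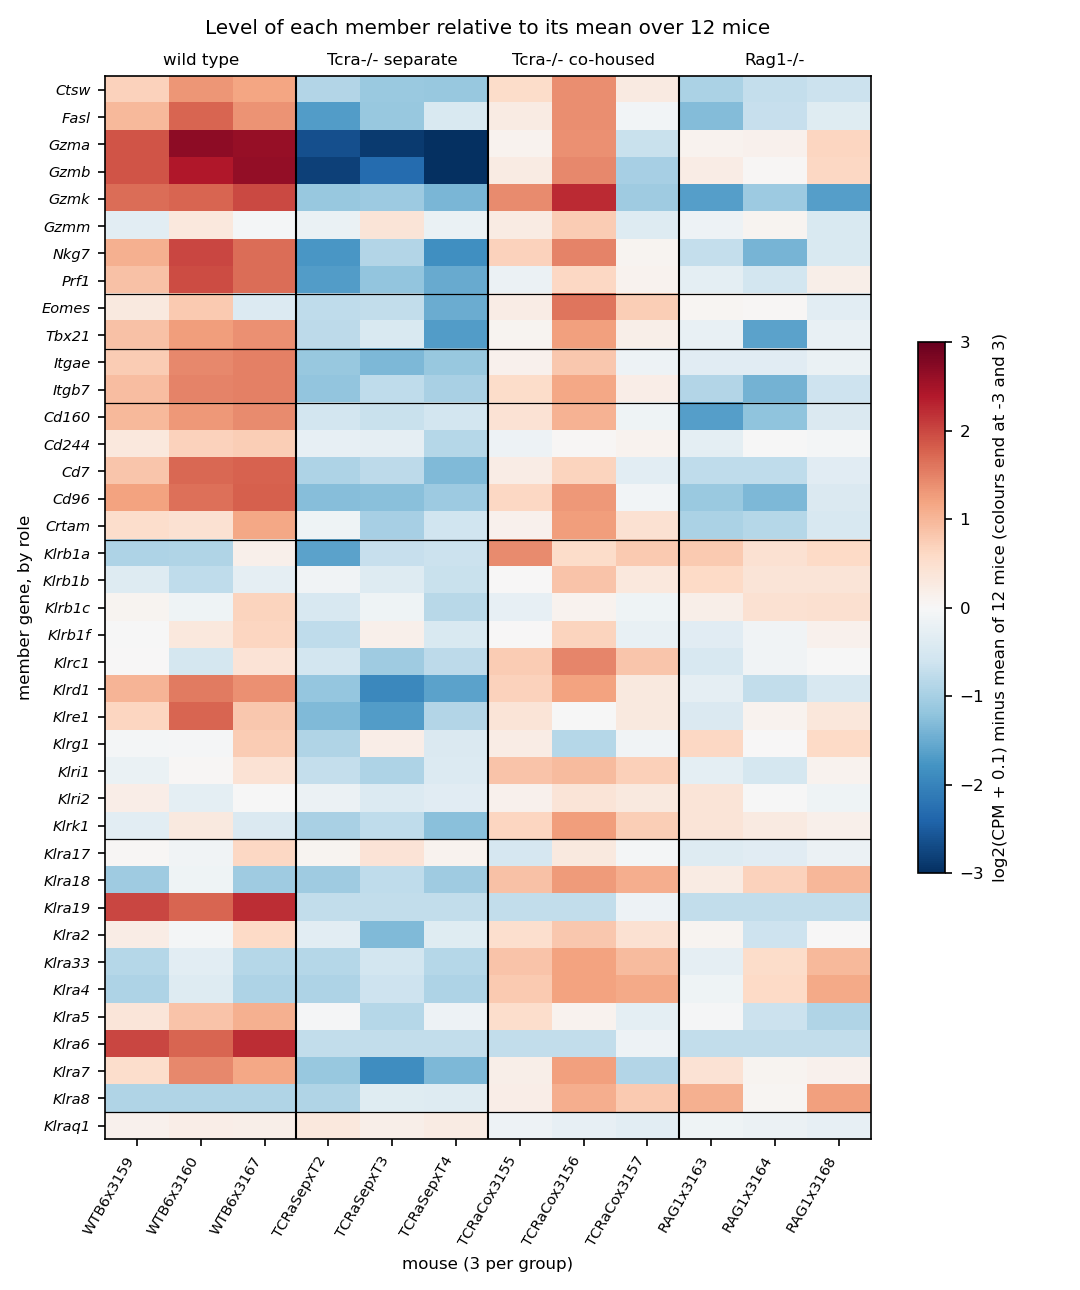
Heat map of log2(CPM + 0.1) minus the mean over 12 mice for the 39 genes tested (rows, grouped by role) in each mouse (columns, by group); red is above and blue below that mean, and colours end at -3 and 3. The killing rows other than Gzmm, the integrin rows and the Cd160, Cd7, Cd96 and Klrd1 rows are red in wild type and blue in separate Tcra-/- mice, and TCRaCox3156 is the reddest co-housed column. The Klra4, Klra8, Klra18 and Klra33 rows are red in co-housed mice and in most Rag1-/- mice. Exceptions are Klra4 and Klra33 in RAG1x3163, slightly below the mean, and Klra8 in RAG1x3164, close to it.

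The heat map of all mice shows how the genes varied within groups. TCRaCox3156 was the highest of the 3 co-housed mice in 31 of the 37 genes without a tie there. Its T cell marker sum was also the highest of its group, 103.8 CPM beside 66.3 CPM in TCRaCox3155 and 49.4 CPM in TCRaCox3157, and its part in these values was not tested. In wild type, WTB6x3159 was lowest in 24 of 35 such genes and WTB6x3167 highest in 22. RAG1x3168 was the highest Rag1-/- mouse in 22 of 36. The separate Tcra-/- mice had no such leader, with TCRaSepxT2 highest in 14, TCRaSepxT3 in 15 and TCRaSepxT4 in 5 of 34.

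Further comparisons place the groups beside each other; they share mice with those above and with one another, so they are not independent. Separate Tcra-/- mice stood lowest of all: against wild type 19 of the 39 genes were lower and 0 higher in edgeR (also 0 higher in DESeq2 and 0 at an unadjusted p under 0.05), beside 7.70% called lower and 6.06% called higher among all genes, with a median log2 fold change of -1.88 against 0.00. Lower were 7 of the 8 killing genes, both integrin chains, 4 of 5 other receptors, Tbx21, Klrd1, Klre1, Klra6, Klra19 and Klra7. With the Ly49 rows that share exons joined, 18 of 36 loci were lower. Gzma and Gzmb had the largest folds among genes with reads in both groups, 42.5 and 37.3 (log2 fold change -5.41, SE 0.59, adjusted p = 0.000313, and -5.22, SE 0.66, adjusted p = 0.000659). Prf1 was 13.8-fold lower (log2 fold change -3.79, SE 0.44, adjusted p = 1.52e-05), Klre1 9.46-fold (-3.24, SE 0.50, adjusted p = 0.000198), Klrd1 8.28-fold (-3.05, SE 0.28, adjusted p = 2.19e-06) and Cd96 7.31-fold (-2.87, SE 0.33, adjusted p = 3.97e-05). Klra6 was at least 25.2-fold lower (adjusted p = 0.00029). Cd7 was 5.80-fold lower (-2.54, SE 0.30, adjusted p = 9.35e-05), Itgae 5.65-fold (-2.50, SE 0.25, adjusted p = 1.85e-05), Itgb7 5.01-fold (-2.32, SE 0.27, adjusted p = 4.86e-05), Ctsw 4.59-fold (-2.20, SE 0.27, adjusted p = 3.26e-05) and Cd244 2.05-fold (-1.04, SE 0.17, adjusted p = 0.00035). Tbx21 was 5.25-fold lower (-2.39, SE 0.48, adjusted p = 0.00194), a call lost without TCRaSepxT4 (0.0133); the Gzmk call was lost without any 1 of the separate mice (adjusted p = 0.0112 to 0.0169). Klrk1 (-0.92, SE 0.25, adjusted p = 0.014) and Eomes (-2.39, SE 0.77, adjusted p = 0.0335) were not called. The 5 gamma-delta T cell markers in the table summed to 164 to 195 CPM in these mice and 103 to 127 CPM in wild type. That list includes genes of other cells, and its sum was 143 to 152 CPM in Rag1-/- mice, which lack mature T cells. Of the 5, 1 was higher, 1 lower and 3 not called in separate Tcra-/- against wild type mice, with a median log2 fold change of -0.03.

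Co-housed Tcra-/- mice differed from wild type in both directions: 7 genes were higher and 6 lower, beside 9.34% called higher and 9.19% called lower among all genes, with a median of -0.46 against 0.00. With the Ly49 rows that share exons joined as above, 5 of 36 loci were higher and 5 lower. The higher calls depended on the mice and the fit: 0 were higher and 7 lower without WTB6x3159 in edgeR, 2 higher and 10 lower without TCRaCox3156, and 0 higher and 3 lower in the edgeR fit to the 6 libraries compared, where 20 of 36 had an unadjusted p under 0.05; DESeq2 on all libraries called 7 higher and 9 lower. Higher with all mice were Klrk1, 2.09-fold (log2 fold change 1.06, SE 0.23, adjusted p = 0.00258), Klrb1b, 1.91-fold (0.93, SE 0.22, adjusted p = 0.00437), Klrb1a, and 4 Ly49 rows. Klra8 was at least 9.70-fold higher (adjusted p = 0.00283), and the count ratios were 20.1 for Klra4 (95% counting interval 5.19 to 173, adjusted p = 0.00247) and 17.9 for Klra33 (4.57 to 154, adjusted p = 0.00388). All wild type reads of Klra4 and Klra33 came from WTB6x3160. Klra18 was 10.7-fold higher (log2 change 3.42, SE 0.78, adjusted p = 0.00353), and its 4 wild type reads were also in WTB6x3160. Lower were Klra6 and Klra19 (count ratio 33.5 in favour of wild type, 95% counting interval 8.96 to 282, adjusted p = 0.00064), Cd7, 2.41-fold (-1.27, SE 0.28, adjusted p = 0.00497), Prf1, 2.78-fold (-1.48, SE 0.36, adjusted p = 0.00507), Itgae, 1.95-fold with overlapping groups (-0.96, SE 0.23, adjusted p = 0.00729), and Klraq1, 1.33-fold (-0.41, SE 0.07, adjusted p = 0.000446).

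Most of these 13 calls changed on leaving out 1 mouse: 7 genes were called without WTB6x3159, 7 without WTB6x3160 and 6 without WTB6x3167. Among all 16053 to 16056 genes then tested, 2165, 2117 and 2503 were called in the same order, beside 18.5% of 15866 with all mice. Klra4 was not called without WTB6x3159 or WTB6x3167 (adjusted p = 0.0144 and 0.0126), nor Klrb1a without TCRaCox3155, TCRaCox3157, WTB6x3159 or WTB6x3160 (0.0459, 0.0132, 0.0432 and 0.0431). The calls on Klrk1, Klra8, Klra18, Klra33 and Klrb1b were lost without TCRaCox3156 (adjusted p = 0.0187, 0.0114, 0.0134, 0.0149 and 0.0328) and equally without WTB6x3159 (0.0161, 0.0102, 0.019, 0.021 and 0.0133). Klra8 and Klrb1b were also lost without WTB6x3160 (0.0104 and 0.0265), and Klrk1, Klra18 and Klra33 without WTB6x3167 (0.015, 0.0166 and 0.0183). The calls on Cd7, Prf1 and Itgae were lost without TCRaCox3155 (adjusted p = 0.0204, 0.0244 and 0.0321), TCRaCox3157, WTB6x3160 or WTB6x3167. Gzma (-1.92, SE 0.48, adjusted p = 0.0174) and Gzmb (-1.78, SE 0.52, adjusted p = 0.0333) were not called with all mice and were called lower without TCRaCox3156 (-2.67, adjusted p = 0.00114, and -2.59, adjusted p = 0.00278). Klrd1 (-0.57, SE 0.24, adjusted p = 0.0884), Tbx21 (-0.61, SE 0.42, adjusted p = 0.309) and Eomes (0.88, SE 0.55, adjusted p = 0.256) were not called.

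Rag1-/- mice had more of several killing and receptor transcripts than separate Tcra-/- mice; the T cell marker sums of both groups are given above, and their part was not tested. Of the 39 genes, 14 were higher and 1, Klraq1, lower (1.35-fold, log2 fold change -0.43, SE 0.07, adjusted p = 0.000119), beside 18.0% called higher and 18.1% called lower among all genes, with a median of 0.64 against -0.04. With the Ly49 rows that share exons joined, 12 of 36 loci were higher and 1 lower. Gzma was 9.76-fold higher (log2 change 3.29, SE 0.57, adjusted p = 0.00146), and this call held without each mouse in turn. Gzmb was 9.16-fold higher (3.19, SE 0.66, adjusted p = 0.00363), Prf1 3.52-fold (1.82, SE 0.49, adjusted p = 0.00579), Klrk1 2.51-fold (1.33, SE 0.25, adjusted p = 0.000383), Klrb1a 3.82-fold (1.93, SE 0.47, adjusted p = 0.00282), Klrd1 2.24-fold (1.16, SE 0.30, adjusted p = 0.00435) and Klrb1b 1.81-fold (0.85, SE 0.22, adjusted p = 0.00415). Count ratios were 32.0 for Klra18 (95% counting interval 5.34 to 1.31e+03, adjusted p = 0.00178), 26.9 for Klra4 (4.41 to 1.1e+03, adjusted p = 0.00307) and 21.7 for Klra33 (3.49 to 897, adjusted p = 0.00658), all against the 1 read of TCRaSepxT3. Klra7 was 8.16-fold higher (3.03, SE 0.82, adjusted p = 0.00619), and its log2 fold change was 3.69 without TCRaSepxT2 and 2.50 without TCRaSepxT3. Itgae was 1.90-fold higher (0.93, SE 0.25, adjusted p = 0.00794), and Klre1 and Klra8 were called higher.

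Each of these calls except those on Gzma, Klrk1 and Klraq1 was lost on leaving out 1 mouse or another: 8 genes were called without RAG1x3163, 6 without RAG1x3168, 5 without TCRaSepxT2, 7 without TCRaSepxT3 and 5 without TCRaSepxT4. Among all 16028 to 16068 genes then tested, 4641, 4869, 5082, 4880 and 4511 were called in the same order, beside 36.1% of 15866 with all mice. Without TCRaSepxT4 the adjusted p was 0.0188 for Gzmb, 0.0237 for Prf1, 0.0191 for Klrd1, 0.0264 for Klrb1b, 0.0268 for Itgae and 0.0222 for Klra7. Klra7 and Itgae lost their calls without any 1 of the 6 mice (0.0114 to 0.0344). Klrb1a was lost without RAG1x3163 or TCRaSepxT2 (0.0108 and 0.016), Klre1 without RAG1x3164, RAG1x3168, TCRaSepxT2 or TCRaSepxT3 (0.0194 to 0.0331), and the Klra4 group and Klra8 without TCRaSepxT2 or TCRaSepxT4 (0.0103 to 0.0363). Tbx21 (0.44, SE 0.54, adjusted p = 0.518) and Eomes (1.86, SE 0.82, adjusted p = 0.0715) were not called. The 11 natural killer and group 1 innate lymphoid markers summed to 64.4 to 78.8 CPM in Rag1-/- and 70.6 to 75.5 CPM in separate Tcra-/- mice. Of the 10 tested, 2 were higher and 1 lower in Rag1-/- mice, with a median log2 fold change of 0.41, beside 18.0% higher and 18.1% lower among all genes. Il2rb was at 4.34 ± 0.595 CPM (SD, n = 3 mice) against 1.70 ± 0.103 CPM, Ncr1 at 0.968 ± 0.380 CPM against 0.388 ± 0.0716 CPM, and Itga1, a large share of the sum, at 23.8 ± 2.96 CPM against 38.8 ± 1.78 CPM. The other 7 tested were not called, and the ranges of the sum overlapped. The part of these markers in the result was not tested.

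Of the pairs of knockout groups, Rag1-/- and co-housed Tcra-/- mice had the fewest calls. In edgeR 6 of the 39 genes were lower and 0 higher in Rag1-/- mice (also 0 higher in DESeq2 and 0 at an unadjusted p under 0.05). Among all genes 0.340% were called higher and 2.55% lower. The median was -0.66 against -0.01, about as large a shift as the 0.64 of Rag1-/- against separate Tcra-/- mice. At an unadjusted p under 0.05 in edgeR, 17 were lower here, and 16 were higher and 1 lower in that other comparison. The 6 were Ctsw, 3.09-fold (log2 fold change -1.63, SE 0.26, adjusted p = 0.00106), Itgb7, 3.14-fold (-1.65, SE 0.27, adjusted p = 0.00193), Klrd1, 2.49-fold (-1.31, SE 0.26, adjusted p = 0.00518), Cd96, 3.24-fold (-1.70, SE 0.33, adjusted p = 0.00635), Cd160, 3.01-fold (-1.59, SE 0.32, adjusted p = 0.00761), and Gzmk (count ratio 48.0 in favour of co-housed, 95% counting interval 12.9 to 402, adjusted p = 0.00923). In the edgeR fit to the 6 libraries compared, 0 genes were called and 15 of 34 had an unadjusted p under 0.05, while DESeq2 on all libraries called 8; the adjusted p there was 0.0146 for Ctsw and 0.0175 for Itgb7. With all libraries but RAG1x3163 a lone call was left (1 gene), and 2 genes were called without RAG1x3164, TCRaCox3155 or TCRaCox3156. Among all 16057 to 16080 genes then tested, 360, 297, 411 and 304 were called in the same order, beside 2.89% of 15866 with all mice. Leaving out mice, Ctsw lost its call with none and Itgb7 without RAG1x3163 (adjusted p = 0.0125), whereas Cd96 and Cd160 lost theirs without RAG1x3163, RAG1x3164, TCRaCox3155 or TCRaCox3156 (0.016 to 0.0482) and Klrd1 and Gzmk without any 1 mouse but TCRaCox3157 (0.0115 to 0.0476). Gzma (-0.20, SE 0.48, adjusted p = 0.887), Gzmb (-0.24, SE 0.53, adjusted p = 0.872), Prf1 (-0.50, SE 0.39, adjusted p = 0.577), Klrk1 (-0.66, SE 0.23, adjusted p = 0.119), Itgae (-0.61, SE 0.24, adjusted p = 0.184), Tbx21 (-1.34, SE 0.47, adjusted p = 0.128) and Eomes (-1.42, SE 0.58, adjusted p = 0.201) were not called.

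**Figure D5:**
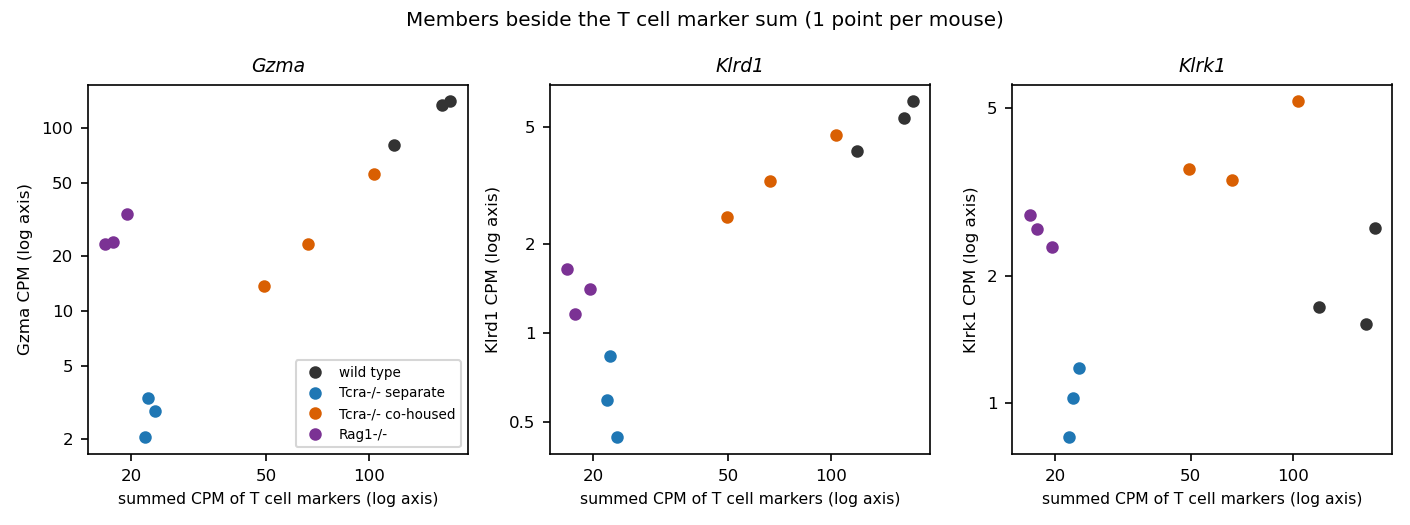
CPM of Gzma, Klrd1 and Klrk1 (vertical, log axis) against the summed CPM of 18 T cell markers (horizontal, log axis), 1 point per mouse, coloured by group. The Rag1-/- mice, at marker sums of 16.8 to 19.5 CPM, lie above the separate Tcra-/- mice, at 22.0 to 23.5 CPM, in all 3 panels, and the wild type mice, at the highest marker sums, lie below the co-housed mice for Klrk1.

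The plot of Gzma, Klrd1 and Klrk1 beside the T cell markers sets these courses side by side. In the 3 Rag1-/- mice Gzma was at 23.3 to 34 CPM with a marker sum of 16.8 to 19.5 CPM, and in the 3 separate Tcra-/- mice it was at 2.06 to 3.38 CPM with a marker sum of 22.0 to 23.5 CPM. TCRaCox3157, with 49.4 CPM of T cell markers, had less Gzma (13.7 CPM) than any Rag1-/- mouse. Klrk1 was at 1.54 to 2.61 CPM in wild type mice, which had the highest marker sums. Going the other way, Gzma was highest in those wild type mice, at 80.3 to 139 CPM. Klrd1 was at 4.14 to 6.1 CPM in wild type and 2.48 to 4.69 CPM in co-housed Tcra-/- mice. It was at 1.16 to 1.64 CPM in Rag1-/- and 0.443 to 0.834 CPM in separate Tcra-/- mice. The part of T cells in these levels was not tested. Mast cells, which carry granule proteases of their own, had marker sums of 9.20 to 19.3 CPM in Rag1-/-, 0.875 to 8.69 CPM in separate Tcra-/-, 6.73 to 18.8 CPM in co-housed Tcra-/- and 5.77 to 14.2 CPM in wild type mice, and their part in the granzyme levels was not tested.

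Genes that serve the same machinery were counted in 4 lists, whose counts stand beside the shares of all genes given above: 9.42% higher and 11.5% lower in the Rag1-/- comparison, and 21.1% higher and 17.7% lower in the co-housed comparison. Of 10 genes for granule packing, release and restraint, 4 were lower and 1 higher in Rag1-/- than in wild type mice, and 7 were higher and 1 lower in co-housed than in separate Tcra-/- mice. Among them, Srgn, the proteoglycan that holds granzymes in granules, was lower in Rag1-/- mice (log2 fold change -1.31, SE 0.16, adjusted p = 2.99e-05) and higher in co-housed mice (1.77, SE 0.17, adjusted p = 1.02e-06). Cst7, the granule protease inhibitor cystatin F, did likewise (-2.34, SE 0.33, adjusted p = 4.39e-05, and 1.69, SE 0.33, adjusted p = 0.000494). Of 16 receptor adaptors, kinases and co-receptors, 11 were lower and 2 higher in Rag1-/- mice and 10 were higher in co-housed mice. The largest changes in Rag1-/- mice were all lower: Sh2d1a, an adaptor of Cd244, at 0.0600 ± 0.0522 CPM (SD, n = 3 mice) against 0.787 ± 0.190 CPM in wild type, Sh2d2a at 0.664 ± 0.0618 CPM against 6.26 ± 1.23 CPM, and the T cell and natural killer cell kinase Zap70 at 1.19 ± 0.182 CPM against 5.81 ± 0.781 CPM.

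Of 17 cytokines and receptors of killer lymphocytes, 6 were lower and 3 higher in Rag1-/- mice, and 13 were higher and 1 lower in co-housed mice. Ccl5, a chemokine released with the granules, was at 4.67 ± 1.25 CPM (SD, n = 3 mice) in Rag1-/- and 47.2 ± 17.5 CPM in wild type mice (log2 fold change -3.33, adjusted p = 0.000838). Il18, an epithelial cytokine that activates killer cells, was at 110 ± 8.86 CPM in Rag1-/- and 26.3 ± 5.78 CPM in wild type mice (2.07, adjusted p = 7.83e-07). Ifng was at 0.856 ± 0.465 CPM in co-housed and 0.0292 ± 0.0253 CPM in separate Tcra-/- mice (4.71, SE 0.79, adjusted p = 0.000124). Of 22 ligands of the receptors, 7 were lower in Rag1-/- mice, and 7 were higher and 5 lower in co-housed mice, the latter near the share of all genes. Clec2e, a relative of the ligands of the Klrb1 receptors, was at 68.9 ± 26.3 CPM in co-housed and 322 ± 55.3 CPM in separate Tcra-/- mice (-2.22, adjusted p = 4.23e-05), and the class I gene H2-Q7 was at 35.6 ± 15.6 CPM and 6.73 ± 1.16 CPM in the same groups and called higher in co-housed mice (log2 fold change 2.41).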

How the data were processed

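RNA of terminal ileum was extracted with Trizol and made into stranded mRNA libraries, per the labels' protocols. The submitters' processing notes name bcl2fastq, TopHat2 2.0.11, Bowtie2 2.2.2.0, featureCounts of Subread 1.4.5-p1, DESeq2 1.12.3 and mm9. Not given in the sources used here were the annotation, the strand setting and the choice for multiply mapped reads, so reads of near-identical Ly49 genes could be lost or split. The authors deposited whole-number counts per gene, which were used as deposited. Library columns were matched to samples by title.

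Counts of all 12 libraries were fitted together in edgeR 4.0.16 (R 4.3.3, limma 3.58.1): filterByExpr on the 4 groups, TMM scaling, robust quasi-likelihood test, 8 residual degrees of freedom, two-sided, Benjamini-Hochberg over 15866 genes, called under 0.01, the rate in the series' design text. CPM use the TMM-scaled library size, and per kilobase values use the deposited exon length. Where a group held 0 reads, the fold is a bound against 3 counts over the group; with 1 to 3 reads, the count ratio is given with an exact 95% interval, which covers counting error only. The fit was also run on simulated counts, with the same spread for all genes and changes planted only in genes over 1 CPM on average. That run does not cover the rarer genes here. DESeq2 1.42.0, other scalings and filters, the fit to the 6 libraries compared and leaving out each mouse were the alternatives.

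The genes and lists were chosen with earlier results of these data known. All tested genes are named; fold, SE and adjusted p are given for at most 12 called genes per comparison and for Gzma, Gzmb, Prf1, Klrd1, Klrk1, Itgae, Tbx21 and Eomes; of other lists, up to 3 called genes with the largest change. Of the marker lists, in Rag1-/- against wild type and then in co-housed against separate Tcra-/-, the calls were 8 lower and 8 higher of 8 pan-leukocyte genes, 18 lower and 16 higher of 18 T cell genes, 12 lower and 7 higher of 12 B cell genes, 2 higher and 12 higher of 14 myeloid genes, and 2 lower and 2 lower of 8 epithelial genes. For 5 gamma-delta T cell genes they were 1 higher with 2 lower and 3 higher with 1 lower, for 10 natural killer and group 1 innate lymphoid genes 1 higher with 3 lower and 5 higher, and for 11 group 3 innate lymphoid genes 1 higher with 4 lower and 4 higher with 2 lower. Of 7 mast cell genes, 1 was called, higher in co-housed mice. Upstream sequences are from RefSeq.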

Additional observations from a re-analysis of the deposited data

How the results depend on the processing

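No paired analysis was possible because the mouse numbers are not shared between groups. With each mouse left out in turn, the number of genes called ran from 17 to 18 (20 with all mice) in Rag1-/- against wild type, 19 to 28 (28) in co-housed against separate Tcra-/-, 17 to 19 (19) in separate Tcra-/- against wild type, 6 to 12 (13) in co-housed against wild type, 5 to 11 (15) in Rag1-/- against separate Tcra-/- and 1 to 7 (6) in Rag1-/- against co-housed. Over all genes, of which 16028 to 16080 were then tested, the calls in the same order were 2434 to 2809, 5002 to 5970, 1285 to 1736, 2117 to 2524, 4511 to 5082 and 297 to 569. With all mice the shares called of all genes were 20.9%, 38.8%, 13.8%, 18.5%, 36.1% and 2.89%. With a filter of over 1 CPM in 3 libraries, which tested 21 of the genes, 17 were called in co-housed against separate Tcra-/-, 6 in co-housed against wild type and 8 in Rag1-/- against separate Tcra-/-. Over the 13787 genes tested under that filter, 5990, 2915 and 5571 were called in the same order. Fitted on the 6 libraries compared, edgeR called 3 in co-housed against wild type and 0 in Rag1-/- against co-housed, where 15 of 34 tested had an unadjusted p under 0.05 and DESeq2 called 8 on all libraries. Over all genes, those edgeR fits called 2277 of 15423 and 281 of 15252. The cause was not tested. Without TCRaCox3156, the Rag1-/- against co-housed log2 fold changes reversed to 0.56 for Gzma (adjusted p = 0.534) and 0.58 for Gzmb (adjusted p = 0.611), neither called with or without it; over the mice left out the values ran from -0.56 to 0.56 and from -0.66 to 0.58. Over the 95 single-gene results, 1098 values were recomputed: 967 kept direction and side of the threshold, 118 lost and 11 gained the call, and 2 reversed. Scaling by library size alone moved the median of all genes to -0.19 in Rag1-/- against wild type, -0.12 in co-housed against separate Tcra-/- and -0.20 in Rag1-/- against separate Tcra-/-. Under it 24 genes (28 before) were called in co-housed against separate Tcra-/-, losing Tbx21, Cd160, Klrb1b and Crtam, and 10 (15 before) in Rag1-/- against separate Tcra-/-, losing Prf1, Itgae, Klrb1b, Klrd1 and Klra8. Over all 15866 genes, 6175 and 5973 were called in these comparisons under that scaling. Few reads limit Prf1, Eomes, Gzmk, Klrc1 and the Ly49 genes.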
